A study of Homo sapiens with 6 samples.

Results

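The enzymes that make cholesterol and fatty acids, with the proteins that control them, were followed as 33 named genes in PC-3 cells with and without an inducible tristetraprolin (TTP) transgene. The genes were taken by symbol from the deposited table, and all 33 were found there and were expressed, with an FPKM (fragments scaled to transcript length and to library size, so a level per length) of at least 1 in a group. They are 33 of 22933 gene symbols in the table and of 13004 that passed the same minimum. PC-3 is a human cell line of prostate epithelium, established from a bone metastasis of an adenocarcinoma. All samples carried the retrovirus pRetroX-Tet-On-Advanced, which supplies the doxycycline-dependent transactivator rtTA2, and all were selected in G418. The tdTom group carried pRetroX-Tight-pPGK-tdTomato as its second retrovirus, and the TTP-tdTom group carried pRetroX-Tight-TTP-pPGK-tdTomato, in which the transactivator drives TTP. Both populations were sorted by flow cytometry and both were kept in 300 ng/ml doxycycline (Dox) for 4 hours. Dox and rtTA2 were thus shared, and the TTP insert was the intended difference. The groups are separately infected populations and no sample was left without Dox. Differences between the populations that predate Dox therefore cannot be told apart from those of the insert. RNA-Seq was performed on 3 samples per group.

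The table holds 1 FPKM value per group and locus, pooled by the authors over the samples of that group. No spread between samples can be given, and no test was made. A gene is here called lower or higher when its FPKM differed between the groups by 1.5-fold or more, which is a rule of size and not of significance. The sequencing protocol aimed at 40000000 to 50000000 read pairs per sample, but FPKM are not counts and do not give the depth that was reached. ZFP36, which encodes TTP, was at 5.56 FPKM in tdTom cells and 5.54 in TTP-tdTom cells, so that its locus did not set the groups apart. Whether reads from the transgene went to ZFP36 is not given in the sources used here, and the group names below are those of the labels. The epithelial markers KRT8, KRT18, KRT19 and EPCAM lay between 15.1 and 98.2 FPKM across both groups, whereas CDH1 was at 0.119 and 0.39. All 5 markers of leukocytes and endothelium were under 0.8, with PECAM1 the highest at 0.793, and of the fibroblast markers COL1A1 was at 4.34 and 4.56, DCN was at 0.199 and 0.236, and COL1A2 was listed at 0 in tdTom and at 1.38 in TTP-tdTom.

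Cholesterol synthesis starts from acetyl-CoA, passes through mevalonate and isoprenoid units to squalene, and ends with the closing and trimming of the sterol ring. Fatty acid synthesis draws on the same acetyl-CoA, builds palmitate, and then lengthens and desaturates it. Both routes are governed by the SREBP transcription factors, which the escort protein SCAP carries from the endoplasmic reticulum to the Golgi when sterols are scarce and which the INSIG proteins hold back when sterols are plentiful. TTP itself is an RNA-binding protein that recognises AU-rich elements in 3′UTRs and promotes decay of the mRNAs that carry them.

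Of the 33 genes, 8 were called lower in the TTP-tdTom group and 0 were called higher. That is 24.2% of the genes called lower, against 22.8% of all 13004 expressed gene symbols, and the share of all expressed genes called higher was 3.90%. The set as a whole therefore lay near the background. In bulk RNA, fewer cells with a transcript and less of it per cell cannot be told apart. Its median log2 fold change (TTP-tdTom over tdTom) was -0.31 and that of all expressed genes was -0.23, so that a level left unchanged relative to the typical gene corresponds to 85.0% of the tdTom value. In all, 29 of the 33 genes, or 87.9%, stood below their control level, against 78.5% of all expressed genes, and 20 lay below the overall median. The 8 called genes came from the mevalonate, sterol ring, regulator and fatty acid genes. Of them HMGCS1, IDI1 and INSIG2 were each more than 2-fold lower, a size reached by 8.65% of all expressed genes, although INSIG2 fell short of it, at a log2 fold change of -0.95, when the FPKM of both its rows was summed. By contrast, MVK, PMVK, MVD, NSDHL, EBP, DHCR7 and LSS had nearly the same level in both groups or a higher one in the TTP-tdTom group.

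**Figure D1:**
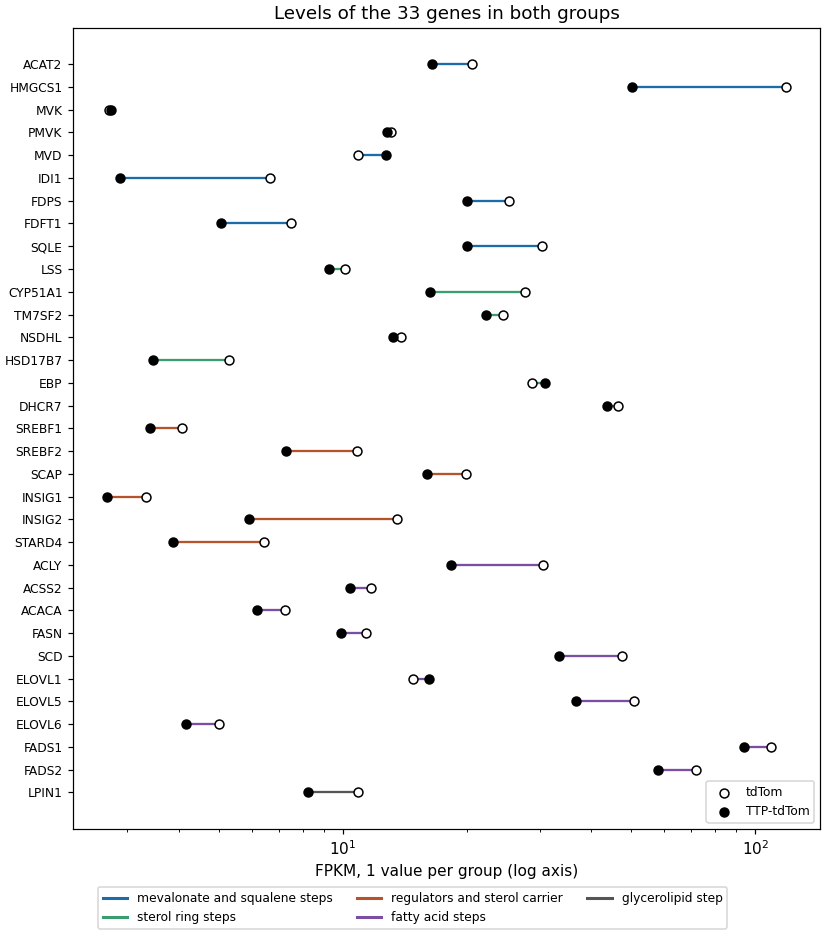
FPKM of each of the 33 genes (log axis) in the tdTom group (open circles) and in the TTP-tdTom group (filled circles), 1 pooled value per group and hence without error bars, with lines coloured by step. The longest lines belong to HMGCS1 (119 and 50.3), IDI1 (6.65 and 2.87) and INSIG2 (13.5 and 5.93), and the filled circle lies to the right of the open one for MVK, MVD, EBP and ELOVL1.

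**Figure D2:**
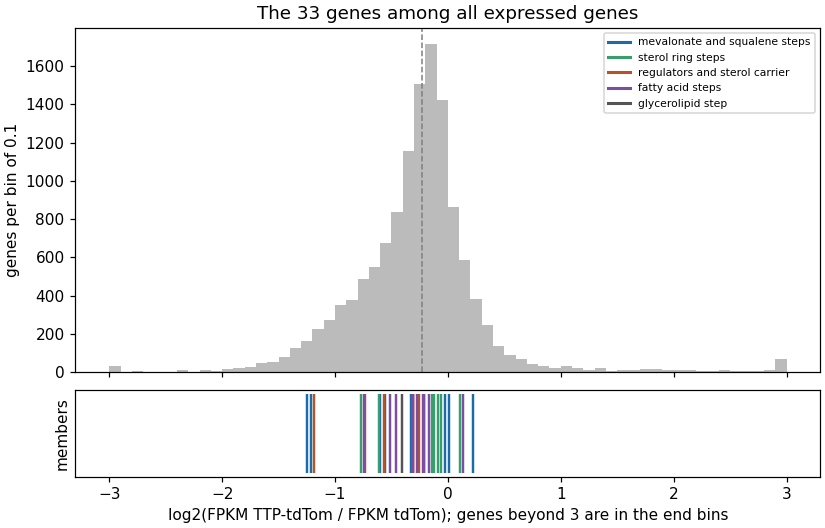
Number of expressed genes in bins of 0.1 of the log2 fold change (upper panel, dashed line at the median of -0.23) and the 33 genes as coloured ticks on the same axis (lower panel). The ticks run from -1.25 to 0.22, across the bulk of all genes.

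The first steps, from acetyl-CoA to squalene epoxide, held both ends of the range. HMGCS1, the HMG-CoA synthase that commits acetyl-CoA units to the mevalonate route, lies on chromosome 5 of GRCh37 from 43287572 to 43313614. Its FPKM was 119 in tdTom cells and 50.3 in TTP-tdTom cells, a log2 fold change of -1.25 that left 42.1% of the control level. Only 4.05% of all expressed genes had a lower log2 fold change. In the tdTom group HMGCS1 had the highest FPKM of the 33 genes, and in the TTP-tdTom group it ranked 3, behind FADS1 and FADS2. IDI1, the isomerase that interconverts the isoprenoid units, lies on chromosome 10 from 1064847 to 1095205 and was at a much lower level. Its FPKM was 6.65 and 2.87, a log2 fold change of -1.21. The span of IDI1 also holds IDI2 and IDI2-AS1, which have rows of their own.

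The enzymes that lie between HMGCS1 and IDI1 in the route did not share these differences. The mevalonate kinase MVK was at 2.71 FPKM in tdTom cells and 2.74 in TTP-tdTom cells, and the phosphomevalonate kinase PMVK was at 13.1 and 12.8. MVD, the decarboxylase that makes the first isoprenoid unit, was at 10.9 and 12.7. Its log2 fold change of 0.22 was the highest of the 33 genes, and 90.4% of all expressed genes lay below it. ACAT2, the cytosolic thiolase at the head of the route, was at 20.5 and 16.4, which leaves 80.2%.

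After IDI1 the values became intermediate. FDPS, which joins isoprenoid units to farnesyl diphosphate, was at 25.2 FPKM in tdTom and 20.0 in TTP-tdTom. FDFT1, the squalene synthase, was at 7.47 and 5.05, and SQLE, the squalene epoxidase, at 30.4 and 20.0. These last enzymes mark the limit of the call, since SQLE was 1.52-fold lower and was called, whereas FDFT1 was 1.48-fold lower and was not. SQLE was not called after centring on the median of all expressed genes (-0.37) or of genes of like transcript GC content (-0.35). In all, 3 of the 9 genes of this stretch were called lower, beside 22.8% of all expressed genes, and their median log2 fold change was -0.33 beside -0.23.

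Among the 7 sterol ring enzymes, CYP51A1 and HSD17B7 were called lower and the other five lay between -0.14 and 0.11 on the log2 scale. These are 2 of 7 genes, beside 22.8% of all expressed genes. Neither was called after centring on the median of all expressed genes (-0.53 and -0.38) or of genes of like transcript GC content (-0.35 and -0.42). CYP51A1, the lanosterol demethylase, lies on chromosome 7 from 91741407 to 91764059. Its FPKM was 27.6 in tdTom cells and 16.3 in TTP-tdTom cells, a log2 fold change of -0.77. HSD17B7, the sterol ketoreductase, was at 5.30 and 3.47, or 1.53-fold lower. Its GC content was taken from an annotated transcript of only 507 bases, which may not stand for the full mRNA. The other ring enzymes of the set had closer values, whereas MSMO1, which acts further along the same route and is described with the related genes, had a log2 fold change of -0.83. LSS, which closes the ring to lanosterol, was at 10.1 and 9.24, and TM7SF2, a sterol reductase, at 24.5 and 22.2, although its row is shared with C11orf2 and the fragments of these genes cannot be told apart. NSDHL, the partner of HSD17B7 in removing methyl groups, was at 13.8 and 13.2. EBP, the sterol isomerase, was at 28.7 and 30.9, the only ring enzyme with a higher value in the TTP-tdTom group. DHCR7, which reduces the last precursor to cholesterol, was at 46.5 and 43.7, so that the most abundant ring enzyme kept 93.9% of its control level. A second DHCR7 row was at 13.2 and 11.2, and summing both rows gave a log2 fold change of -0.12. The median of the 7 was -0.12, above the median of all expressed genes.

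**Figure D3:**
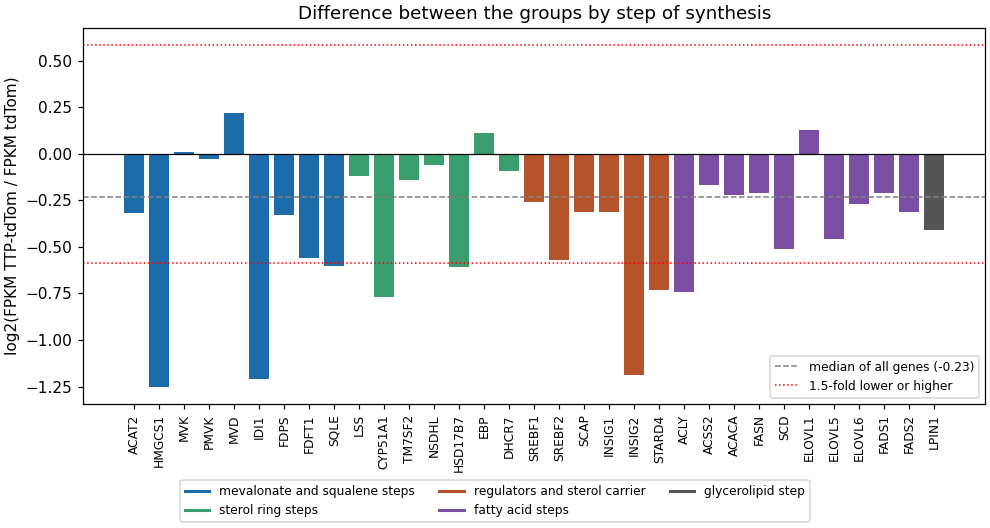
log2 ratio of the FPKM in the TTP-tdTom group to that in the tdTom group (vertical axis) for the 33 genes in the order of their steps, as bars from 0 without error bars. Dotted lines mark 1.5-fold and the dashed line the median of all expressed genes, -0.23; the bars of MVK, PMVK and MVD, between the long bars of HMGCS1 and IDI1, are short or point upwards.

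All 6 regulators and sterol carriers stood below their control level, as did 78.5% of all expressed genes. The median log2 fold change of the 6 was -0.44. All 6 also lay below the median of all expressed genes, but SREBF1, SCAP and INSIG1 were close to it, with log2 differences from it of -0.03, -0.08 and -0.08. INSIG2, which retains the SCAP-SREBP complex in the endoplasmic reticulum, lies on chromosome 2 from 118846032 to 118867702. Its FPKM was 13.5 in tdTom and 5.93 in TTP-tdTom, a log2 fold change of -1.19. Its relative INSIG1, on chromosome 7 from 155089439 to 155102548, was at 3.33 and 2.68, a log2 fold change of -0.31. INSIG2 was therefore 4.06 times INSIG1 in tdTom cells and 2.21 times in TTP-tdTom cells. STARD4, a cytosolic sterol carrier, was at 6.42 and 3.87, or 1.66-fold lower. Its locus spans 521186 bases on chromosome 5 and also holds NREP, which has its own row. Relative to the median gene of like transcript GC content, STARD4 stood at 0.02 and INSIG2 at -0.44, and neither was called. STARD4 was also not called after centring on the median of all expressed genes (-0.50).

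The SREBP genes and SCAP were not called. SREBF2, whose product mainly drives the sterol genes, was at 10.8 FPKM in tdTom and 7.28 in TTP-tdTom, 1.48-fold lower and so just outside the call. SREBF1, whose product mainly drives the fatty acid genes, was at 4.08 and 3.40, a log2 fold change of -0.26. SCAP was at 19.9 and 16.0. Levels of the processed SREBP proteins are not part of these data.

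Of the 10 fatty acid genes 1, ACLY, was called lower, beside 22.8% of all expressed genes. ACLY, the citrate lyase that supplies cytosolic acetyl-CoA to both routes, lies on chromosome 17 from 40023169 to 40075297. Its FPKM was 30.5 in tdTom cells and 18.3 in TTP-tdTom cells, a log2 fold change of -0.74. After centring on the median of all expressed genes ACLY stood at -0.50 and was not called. ACSS2, which makes acetyl-CoA from acetate, was at 11.7 and 10.4. The core enzymes of chain building were close to the typical gene. ACACA, the acetyl-CoA carboxylase, was at 7.23 and 6.20, and FASN, the fatty acid synthase, at 11.4 and 9.90. Their log2 fold changes of -0.22 and -0.21 stood in the middle of all expressed genes, of which 51.6% and 53.3% lay lower.

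The desaturases and elongases differed among themselves. SCD, which makes monounsaturated fatty acids, was at 47.6 FPKM in tdTom and 33.5 in TTP-tdTom, or 1.42-fold lower. FADS1 was at 109 and 93.9 and FADS2 at 72.0 and 58.1. These neighbouring genes of chromosome 11 desaturate polyunsaturated fatty acids, and in the TTP-tdTom group they had the highest levels of all 33. ELOVL5, an elongase of polyunsaturated chains, was at 50.7 and 36.8, a log2 fold change of -0.46, and ELOVL6, which lengthens palmitate, was at 4.99 and 4.15. ELOVL1, the elongase of very long saturated chains, was at 14.8 and 16.2, the only fatty acid gene with a higher value in the TTP-tdTom group. The median of the 10 genes was -0.24. LPIN1, a phosphatidate phosphatase of glycerolipid synthesis, was at 10.9 and 8.21, which leaves 75.2%.

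Other genes of these pathways were counted in the same way. Of 57 further genes in 4 lists, 51 passed the minimum FPKM, 12 of these were called lower, or 23.5%, and 0 higher, with a median log2 fold change of -0.28. The share called lower was again near the 22.8% of all expressed genes. Among 12 other sterol genes 3 were called lower, beside the same 22.8%. They were SC5DL, the sterol desaturase now named SC5D, at 5.28 and 2.24, MBTPS2, a Golgi protease that releases SREBP, at 32.0 and 15.7, and MSMO1, the methyl sterol oxidase that acts after CYP51A1, at 15.2 and 8.53. The highest log2 fold change of that list was 0.07, for RNF139, a ubiquitin ligase of the endoplasmic reticulum. Of the sterol transport and storage genes, 11 passed and 2 were called lower, beside the same 22.8%. SOAT1, which esterifies cholesterol for storage, was the lowest at 7.30 and 3.05, a log2 fold change of -1.26. The sterol exporter ABCA1 was at 2.31 and 1.44, and the lysosomal sterol binder NPC2 was the highest of the list at 243 and 268.

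Of the other fatty acid genes 12 passed and 4 were called lower, and of 16 glycerolipid genes 3 were, both beside 22.8% of all expressed genes. ACSL4, which activates long polyunsaturated chains, had the lowest log2 fold change of all the related genes, -1.42, at 35.7 FPKM in tdTom and 13.4 in TTP-tdTom. ACSL3, another acyl-CoA synthetase, was at 40.0 and 20.9. The elongation enzymes HSD17B12, at 40.7 and 20.6, and PTPLB, at 21.8 and 11.2, were about as far apart, while TECR, which completes the elongation cycle after them, was at 45.0 and 44.0. PTPLA was the highest of the list with a log2 fold change of 0.13. Among the glycerolipid genes AGPAT5 was the lowest at -0.72 and DGAT1 the highest at 0.10.

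The GC content of the transcript, which the choice of genes did not use, ran alongside these differences. Across the 33 genes Spearman's rho between GC content and log2 fold change was 0.70 and Pearson's r was 0.69. Across 11845 expressed genes with an annotated transcript rho was 0.47 and r was 0.34. These are descriptions across genes that share the same pooled values, and genes are not replicates. Of the 7 genes with a GC content up to 42.7%, 5 were called lower (HMGCS1, IDI1, CYP51A1, INSIG2 and STARD4), against 49.0% of all genes in that range. Of the 10 genes between 42.7% and 51.2%, 2 were called, against 20.1%, and of the 16 above, 1 was called, against 5.89%. Compared with the median gene of the same decile of GC content, HMGCS1 was lower by a log2 difference of -0.68, IDI1 by -0.80 and ACLY by -0.59. For INSIG2 that difference was -0.44 and for STARD4 it was 0.02. ELOVL6, with a GC content of 41.2%, lay furthest above its decile among these 7 genes, by 0.15. The part of GC content in the differences was not tested.

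**Figure D4:**
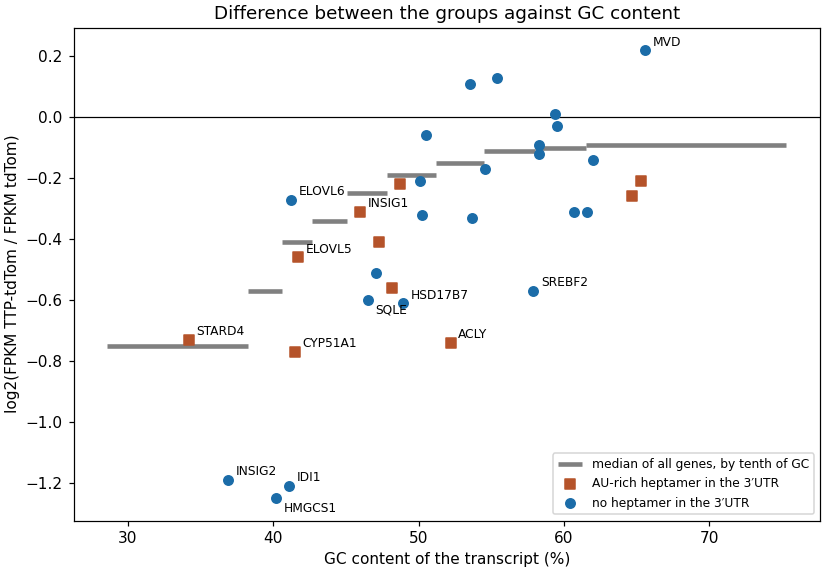
log2 ratio of FPKM (TTP-tdTom over tdTom) against the GC content of the transcript in percent, for the 33 genes, with squares for genes whose 3′UTR holds the AU-rich heptamer and circles for the others. Grey bars are the medians of all expressed genes in each decile of GC content, from -0.75 to -0.09; IDI1 (-0.80), HMGCS1 (-0.68) and ACLY (-0.59) lie furthest below the median of their own decile, and of these only ACLY carries the heptamer.

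The heptamer UAUUUAU, the core of the AU-rich elements that TTP recognises, was sought on the transcript strand of each gene's longest 3′UTR in the annotation. It was present in 10 of the 33 genes, or 30.3%, and in 36.0% of 11845 expressed genes. Of the 8 genes called lower 3 held it, and of the other 25 genes 7 did. The genes with the heptamer had a median log2 fold change of -0.44 and those without it one of -0.27, against -0.44 and -0.17 for all expressed genes. Taken relative to the median of each gene's GC decile, these medians were -0.14 and -0.06, against -0.07 and 0.03 for all expressed genes. Of the genes with the heptamer 30.0% were called lower and of those without it 21.7%, against 39.2% and 14% of all expressed genes. The 3 lowest genes, HMGCS1, IDI1 and INSIG2, were without it. The sites of the called genes, and those of INSIG1, which held 2 copies although it differed less than INSIG2 with 0, are shown so that the letters around each copy can be compared. Positions are counted in the 3′UTR, coordinates are those of GRCh38, sequences are from GENCODE release 29 and capitals mark the heptamer.
CYP51A1, base 425 of 1514, chr7:92113224-92113251, minus strand: caguuuauuauUAUUUAUcugggcaauu
CYP51A1, base 704 of 1514, chr7:92112945-92112972, minus strand: aaauaauuacaUAUUUAUuuaccugaua
ACLY, base 258 of 902, chr17:41867536-41867563, minus strand: gcuaccugcugUAUUUAUuauauggaag
ACLY, base 728 of 902, chr17:41867066-41867093, minus strand: uauguucucugUAUUUAUgcagcugauu
STARD4, base 1078 of 3853, chr5:111498792-111498819, minus strand: gcuuuuguuuuUAUUUAUuuuuugccac
STARD4, base 2483 of 3853, chr5:111497387-111497414, minus strand: guccuauagcaUAUUUAUuaauuugucu
STARD4, base 3756 of 3853, chr5:111496114-111496141, minus strand: uaaaacuagaaUAUUUAUuaaacuaaua
STARD4, base 3799 of 3853, chr5:111496071-111496098, minus strand: aauaaaauaugUAUUUAUuuuuaaauug
INSIG1, base 431 of 1965, chr7:155308690-155308717, plus strand: aauaggaauaaUAUUUAUccaaaagauu
INSIG1, base 1070 of 1965, chr7:155309329-155309356, plus strand: uaucucuuaaaUAUUUAUuuuuuuuaac

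The shorter AUUUA, which is part of the heptamer, was counted after these values were seen. It was present in 7 of the 8 called genes, HSD17B7 with its 3′UTR of 174 bases being the exception, and in 14 of the other 25, against 74.0% of 11845 expressed genes. The annotated transcript used for HSD17B7 has only 507 bases in all, and its features may not be those of the full mRNA. HMGCS1 and INSIG2 held 4 copies each and IDI1 held 12, but ELOVL6, which was not called, also held 12. One copy of each of the 3 lowest genes, the one with the most A and U around it, is shown with AUUUA in capitals.
HMGCS1, base 896 of 1736, chr5:43290221-43290246, minus strand: cuuuuuuaaaaAUUUAaaauggaagg
IDI1, base 86 of 2035, chr10:1041087-1041112, minus strand: uucuaucauuaAUUUAucauuaaauu
INSIG2, base 1530 of 1706, chr2:118109841-118109866, plus strand: auacuacuauaAUUUAuuauuauauc

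A match is a description of the letters and not a binding site. The share of A and U in the whole 3′UTR had a rho of -0.72 with the log2 fold change across the 33 genes, and the number of heptamers one of -0.30. Across 11845 expressed genes these values were -0.47 and -0.32. The median A and U share was 65.4% in the 3′UTRs of the 8 called genes, 49.7% in the other 25 and 57.9% in all expressed genes. HMGCS1, IDI1 and INSIG2 stood at 64.6%, 64.7% and 66.8%. Some genes went the other way. SREBF2, at a log2 fold change of -0.57 and just short of the call, had an A and U share of 42.2% in its 3′UTR of 3118 bases. ACAT2, INSIG1 and ELOVL6 were not called, at -0.32, -0.31 and -0.27, although their shares were 69.9%, 62.5% and 60.1%.

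Promoters were taken from RefSeq on GRCh38.p14 as 250 bases before to 50 after the gene start and were searched on both strands. They were found for 30 of the 33 genes, all but ACAT2, FDFT1 and SQLE. Only exact matches within this window were sought, so variant letters and sites further away were not counted. TCACNCCAC, the core of a sterol regulatory element, was in the promoter of 1 gene, SREBF2, and in 1.09% of 10144 promoters of expressed genes. Its first base lay at -133 from the gene start, and it is shown as the only match, in capitals.
SREBF2, chr22:41832962-41832990, plus strand: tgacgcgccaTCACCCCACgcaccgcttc

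CCAAT, the letters of the NF-Y box, stood in 18 of the 30 promoters, or 60.0%, against 37.1% of 10144. It was in 4 of 7 promoters of genes called lower and in 14 of 23 of the others. GGGCGG, the GC box, stood in 27 of 30, against 69.4% of 10144, in all 7 of the genes called lower and in 20 of 23 of the others. No test was made of these shares.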

How the data were processed

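RNA-Seq libraries of 6 samples, 3 per group, were strand-specific and sequenced in paired-end runs; nothing says whether counting used strand. Per the methods and the processing notes, the authors aligned reads to Hs37D5 (GRCh37 with decoy) with TopHat2 2.0.13 and used Cufflinks 2.2.1 to assemble and compare transcripts. The deposited FPKM values are 1 per group and locus, scaled by the authors to transcript length and library size. The authors' own fold changes, test statistics, p and q are further columns of the table and were not used. Where a symbol had several rows, the row with the most RefSeq names was taken, then that of the highest FPKM. Here log2 ratios of the group FPKM (TTP-tdTom over tdTom, without pseudocount) were computed for symbols that reached 1 FPKM in either group and were above 0 in both. Differences of at least 1.5-fold were called. There was no test, so no p-value is given. The protocol aimed at 40000000 to 50000000 read pairs per sample; the depth reached cannot be read from FPKM.

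Transcripts of GENCODE release 29 were matched by symbol or synonym for 11845 of 13004 genes, or 91.1%, and for all 33 members. The members and lists were chosen with earlier results of these data known. All members are named, with both values for most; of each related list the lowest and highest are given, and others were named after their values were seen. The alternatives were a 2-fold threshold, pseudocounts of 0.1 and 1, no minimum FPKM or one of 10, centring on the median or on the median by GC content, rescaling, and other choices of locus. Functions were tested on simulated data. Python 3.11.15, numpy 2.4.6, pandas 2.3.3, scipy 1.17.1 and matplotlib 3.10.9 were used.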

Additional observations from a re-analysis of the deposited data

Results flagged for a closer look

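In all, 5 of the 33 genes had a second row in the table with the same span, which the comparisons did not use. In 3 of these rows the FPKM was higher in the TTP-tdTom group than in the control. The second INSIG2 row was at 1.09 in TTP-tdTom and 0.0785 in tdTom, opposite in direction to the INSIG2 row described above. The second INSIG1 row was at 0.38 and 0.204, and the second LSS row at 0.501 and 0.194. The second rows of DHCR7 and FDPS were lower in the TTP-tdTom group. That of DHCR7, the largest of the 5, was at 11.2 in TTP-tdTom and 13.2 in tdTom, and that of FDPS at 0.526 and 1.01. The strand of these rows is not given in the columns used, and whether they hold antisense or misassigned fragments was not tested. Summing all rows of a symbol left the same 8 genes called lower, and moved INSIG2 from -1.19 to -0.95 on the log2 scale, short of 2-fold.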

How the results depend on the processing

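No paired analysis was possible because each group has a single pooled value per locus, and neither a replicate block nor leaving out a replicate could be run. The number of genes called lower, 8, was 3 at a 2-fold threshold (HMGCS1, IDI1 and INSIG2), 5 with an FPKM of at least 10, where 24 of the 33 genes were left, 3 after centring on the median of all genes (the same 3 genes) and 3 after centring on the median of genes of like GC content (HMGCS1, IDI1 and ACLY). Of all genes under these same settings 8.65%, 26.7%, 13.6% and 7.79% were called lower, in that order. The number of the 33 was between 6 and 8 under the other alternatives, and 0 genes were called higher under any of them. The median log2 fold change of the 33 genes, -0.31, was -0.08 after centring on all genes, -0.12 after centring by GC content, and between -0.31 and -0.26 otherwise. STARD4 turned from -0.73 to 0.02 after centring by GC content, the median of its decile being -0.75. HMGCS1 and IDI1 were called under every alternative that kept them; IDI1 did not reach an FPKM of 10. With no counts, the precision of low genes such as MVK, INSIG1 and IDI1 is not known, and a fold near the 1.5-fold line, as for SQLE, HSD17B7, SREBF2 and FDFT1, cannot be placed on either side of it with confidence.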

Other observations

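Within the sterol route, some enzymes that act close to each other had unlike values. The log2 fold change went from -1.25 for HMGCS1 to 0.01, -0.03 and 0.22 for MVK, PMVK and MVD and back to -1.21 for IDI1, and further on from -0.77 for CYP51A1 to -0.14 for TM7SF2, -0.83 for MSMO1, -0.06 for NSDHL and -0.61 for HSD17B7. Related genes diverged as well. INSIG2 and INSIG1 differed in log2 fold change by -0.88, ELOVL5 and ELOVL1 by -0.59, and SREBF2 and SREBF1 by -0.31, while FADS1 and FADS2 differed by 0.10. Relative to the median gene of the same GC decile, INSIG2 and INSIG1 stood at -0.44 and -0.06. ELOVL5 and ELOVL1 then stood at -0.05 and 0.24, SREBF2 and SREBF1 at -0.46 and -0.18, and FADS1 and FADS2 at -0.02 and -0.21. With 1 FPKM value per group, and the authors' own test columns not used, none of these differences was tested.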
